A study of Mus musculus with 18 samples.

Results

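The 8 genes examined here, Reln, Trp73, Lhx1, Lhx5, Calb2, Ebf2, Ebf3 and Nhlh2, are used together as markers of Cajal-Retzius neurons. They were taken by symbol from the gene tables, as 8 of the 55153 genes with RNA-seq counts and 8 of the 54838 genes with ribosome profiling (Ribo-seq) counts. Each has a value in all 18 libraries, and each passed the filter on low counts in every comparison.

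Cajal-Retzius neurons are among the first neurons of the cerebral cortex. They arise at the edges of the pallium, in the cortical hem, the septum and the pallial-subpallial boundary, and they migrate below the meninges to fill the marginal zone. They secrete reelin, the product of Reln, which binds the receptors Vldlr and Lrp8 on migrating neurons and leads to phosphorylation of the adaptor Dab1, and this pathway sets the order of the cortical layers. Trp73 encodes the p53 relative p73, which Cajal-Retzius neurons of the hem need to survive. Lhx1 and Lhx5 are LIM homeobox factors, Ebf2 and Ebf3 are factors of the early B-cell factor family, Nhlh2 is a basic helix-loop-helix factor of young neurons, and Calb2 encodes the calcium-binding protein calretinin. None of the 8 is made by these neurons alone. In the embryonic forebrain, interneurons can hold Reln or Calb2, and the septum, the ventral forebrain and the diencephalon hold several of the factors.

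RNA-seq and Ribo-seq were performed on cerebral cortices of mice at embryonic day 15.5 (E15.5), all labelled as strain C57BL/6. Ctrl mice were wild type, F-cKO mice were Fto(f/f, Emx1-cre), which lack the RNA demethylase Fto, and M-cKO mice were Mettl3(f/f, Emx1-cre), which lack the RNA methyltransferase Mettl3. Both enzymes act on N6-methyladenosine, and each genotype had 3 libraries in each assay. Floxed mice had a C57/BL6 × 129 background per the methods, and the Cre came from a C57/BL6 line. Cre was driven by the Emx1 promoter, which is active in the progenitors of the dorsal telencephalon and not in those of the ventral forebrain. How many Cajal-Retzius neurons lost either gene cannot be read from the tables. The replicates were named biological repeats, and how many embryos and litters stand behind them is not clear from the methods, whose wording for Ribo-seq may mean a single litter, so P values measure the spread between these libraries. The same 3 Ctrl libraries served both knockouts in each assay.

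RNA-seq libraries held between 18504094 and 22592406 counted reads. Ribo-seq libraries held between 10973699 and 35853227 counted fragments over the 14348 genes without blank counts, so these totals leave out genes with blanks. Fto was listed in F-cKO RNA-seq libraries at 3.26, 7.56 and 2.43 FPKM (fragments scaled by gene length and library size) for replicates 1 to 3, below the 8.37 to 11.2 FPKM of Ctrl, with replicate 2 nearest to Ctrl. Mettl3 was not lower in M-cKO RNA-seq, at 7.82 to 8.61 FPKM compared to 5.07 to 6.43 FPKM in Ctrl, so gene-level RNA did not check that label. Its Ribo-seq count was lower in M-cKO, with a log2 fold change of -0.55 ± 0.09 (SE, edgeR adjusted P = 0.016). Throughout, M-cKO and F-cKO stand for the libraries that carry these labels.

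In Ctrl cortices, Calb2 and Reln had the highest RNA levels per length of the 8 genes. Mean FPKM over the 3 Ctrl libraries was 14.1 ± 1.95 (SD) for Calb2 and 10.2 ± 0.744 for Reln. Nhlh2 followed with 6.25 ± 0.964, Trp73 with 4.43 ± 0.569 and Lhx5 with 2.76 ± 0.317. Ebf3, at 0.800 ± 0.256, and Lhx1, at 0.776 ± 0.285, overlapped. Ebf2 was lowest with 0.085 ± 0.026 FPKM, and rested on 9 to 17 reads per Ctrl library. All other neighbours in this order were separated in every Ctrl library. On the ribosome, the order of the Ctrl means differed. Calb2 had 47.4 ± 6.49 RPKM (scaled in the same way, SD, n = 3), followed by Lhx5 with 4.61 ± 1.19 and Nhlh2 with 4.21 ± 0.481. Reln had 2.70 ± 0.200 and Trp73 had 2.39 ± 0.282. Ebf3 had 0.737 ± 0.107, Lhx1 had 0.710 ± 0.133 and Ebf2 had 0.188 ± 0.056. The Ctrl libraries of Lhx5 and Nhlh2 overlapped, as did those of Reln and Trp73 and those of Ebf3 and Lhx1.

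The positions of the genes and the entries nearest to them were read from RefSeq on GRCm38.p6, the assembly that mm10 stands for. Reln lies at chr5:21884454-22344705, Trp73 at chr4:154056249-154139875, Lhx1 at chr11:84517975-84525534, Lhx5 at chr5:120431886-120441457, Calb2 at chr8:110142526-110168212, Ebf2 at chr14:67233292-67430952, Ebf3 at chr7:137193671-137322805 and Nhlh2 at chr3:102010111-102015492. The RNA-seq kit named in the labels does not mark strand, so reads of antisense partners could not be told apart. The entry nearest to Lhx1 is Lhx1os, a long noncoding RNA, 126 bases away, and that nearest to Lhx5 is Gm27199, 119 bases away. Reln spans 3 other RefSeq entries, Ebf2 spans 4, and Trp73 and Ebf3 span 1 each. Promoter sequences were found for 5 of the 8 genes (Reln, Trp73, Lhx1, Ebf3 and Nhlh2).

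The 250 bases upstream of a start are shown for the 4 genes with a promoter entry that were called higher in the RNA of M-cKO cortices, to set side by side genes that moved together, all on the minus strand and written 5′ to 3′. Capitals mark GC boxes, the motif GGGCGG on either strand, which was held by 32.7% of 32851 mouse promoters of this length. Trp73 has an upstream start, for the long protein, and an internal start, for the form without the N-terminal transactivation domain, and the counts per gene do not separate them. The Ebf3 window lies inside the RefSeq span of Ebf3, which runs to 137322805, and not at the upstream end of that span.
Reln, chr5:22344706-22344955: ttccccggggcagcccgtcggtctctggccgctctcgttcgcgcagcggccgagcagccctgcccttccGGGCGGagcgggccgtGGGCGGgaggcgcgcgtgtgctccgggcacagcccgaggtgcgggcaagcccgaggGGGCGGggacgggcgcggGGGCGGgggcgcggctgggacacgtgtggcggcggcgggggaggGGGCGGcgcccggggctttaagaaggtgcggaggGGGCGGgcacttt
Ebf3, chr7:137314446-137314695: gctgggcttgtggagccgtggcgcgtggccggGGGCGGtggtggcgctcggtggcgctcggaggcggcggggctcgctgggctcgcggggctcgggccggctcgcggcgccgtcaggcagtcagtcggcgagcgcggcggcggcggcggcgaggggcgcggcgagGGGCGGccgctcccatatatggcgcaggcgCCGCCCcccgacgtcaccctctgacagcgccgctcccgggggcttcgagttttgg
Trp73, upstream start, chr4:154139876-154140125: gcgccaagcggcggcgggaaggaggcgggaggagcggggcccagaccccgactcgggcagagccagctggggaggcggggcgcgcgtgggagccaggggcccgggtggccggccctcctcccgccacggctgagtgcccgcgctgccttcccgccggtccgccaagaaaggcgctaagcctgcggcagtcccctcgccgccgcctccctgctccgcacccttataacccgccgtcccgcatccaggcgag
Trp73, internal start, chr4:154097174-154097423: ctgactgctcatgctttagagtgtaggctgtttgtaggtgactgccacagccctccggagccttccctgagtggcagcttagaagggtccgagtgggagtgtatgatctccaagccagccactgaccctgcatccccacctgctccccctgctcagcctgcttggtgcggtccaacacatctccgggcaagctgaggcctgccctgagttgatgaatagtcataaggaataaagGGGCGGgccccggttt
Lhx1, chr11:84525535-84525784: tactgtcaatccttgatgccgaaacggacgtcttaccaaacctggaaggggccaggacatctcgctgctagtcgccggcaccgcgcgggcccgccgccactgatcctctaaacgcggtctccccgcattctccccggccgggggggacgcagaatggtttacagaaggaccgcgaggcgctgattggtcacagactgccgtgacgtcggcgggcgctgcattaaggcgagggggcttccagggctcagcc
The Reln window held 6 GC boxes, the Ebf3 window 3, the internal Trp73 window 1, and the upstream Trp73 and Lhx1 windows 0. G and C made up 80% of the Reln and Ebf3 windows, 77.2% of the upstream Trp73 window, 64.8% of the Lhx1 window and 58.4% of the internal Trp73 window, compared to a median of 52.4% over all promoters. The Nhlh2 window had 42% G and C and no GC box. An E-box of the palindromic form CAGCTG, held by 13.0% of promoters, lay in the upstream Trp73 window alone among these 6 windows. Both strands were searched, and letters in a window are a description and not a binding site.

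Compared to Ctrl, 4 of the 8 genes changed in F-cKO RNA: Reln, Ebf2 and Ebf3 were higher and Calb2 was lower (edgeR quasi-likelihood test, adjusted P below 0.05 over 16944 genes). Of all genes tested, 21.1% were called in this comparison, 11.5% as higher and 9.57% as lower. In M-cKO RNA, 6 of the 8 changed: Reln, Trp73, Lhx1, Ebf2 and Ebf3 were higher and Calb2 was lower, where 29.6% of 16968 genes were called, 15.5% as higher and 14.1% as lower. Over the 8 genes the log2 fold change had a median of 0.38 in F-cKO RNA and of 0.36 in M-cKO RNA, beside -0.01 over all genes tested in both comparisons. Without F-cKO replicate 2, the library in which Fto was nearest to Ctrl, 3 of the 8 and 11.3% of all genes were called in F-cKO. Without Ctrl replicate 3, edgeR called 3 of them in F-cKO, with 8.92% of all genes, and 4 of them in M-cKO, with 20.5%, and without M-cKO replicate 2 it called 4 in M-cKO, with 22.2%. Among the Ctrl libraries, replicate 3 had the lowest FPKM of 7 of the 8 genes and the highest of Calb2. Library FPKM of 6 of the 8 genes did not overlap with Ctrl in F-cKO, and of 6 in M-cKO, where 41.6% and 44.7% of all genes tested did not overlap. In CPM (counts scaled by library size, not by gene length) this was 5 in F-cKO, where Lhx1 overlapped, and 6 in M-cKO, beside 41.7% and 44.7% of all genes. With 3 libraries against 3, the smallest P of a two-sided exact permutation test is 0.1, which each of the genes that did not overlap reached.

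**Figure D1:**
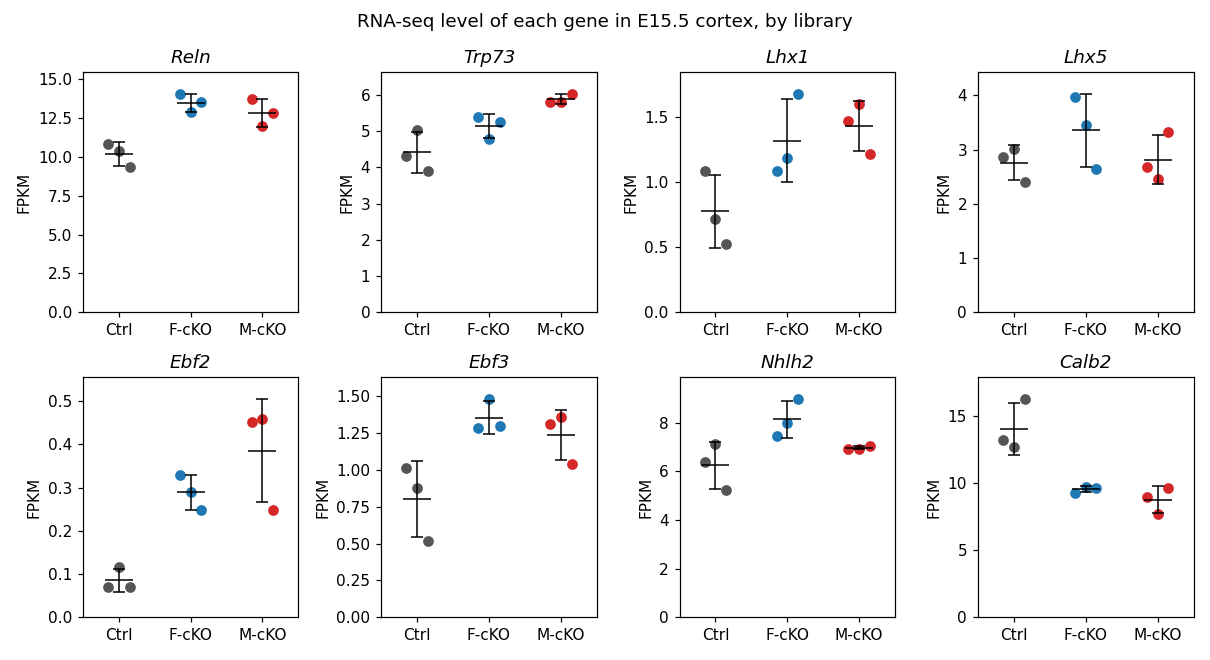
RNA-seq level (FPKM, linear axes from 0) of each of the 8 genes in the 3 Ctrl, 3 F-cKO and 3 M-cKO libraries, with 1 point per library, the group mean as a bar and the SD as whiskers. Reln and Ebf2 sit above all Ctrl libraries in both knockouts and Calb2 sits below them.

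Reln, the ligand, had 10.8, 10.4 and 9.39 FPKM in Ctrl replicates 1 to 3. It had 14.1, 12.9 and 13.5 FPKM in F-cKO and 13.8, 12 and 12.8 FPKM in M-cKO. All 6 knockout libraries lay above all Ctrl libraries, and the knockouts overlapped each other. The log2 fold change was 0.39 ± 0.07 (SE) in F-cKO (edgeR adjusted P = 0.0056) and 0.32 ± 0.07 in M-cKO (adjusted P = 0.0059), or 1.31-fold and 1.25-fold. It rested on 4171 to 7418 reads per library, and both calls held with any 1 library left out.

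Among the transcription factors, Ebf2 showed the largest fold change of the 8 genes in both knockouts. Its counts were low throughout, at 11, 17 and 9 reads in Ctrl, 47, 41 and 37 in F-cKO and 71, 64 and 38 in M-cKO. As FPKM this was 0.071, 0.116 and 0.069 in Ctrl, 0.330, 0.289 and 0.247 in F-cKO, and 0.452, 0.457 and 0.248 in M-cKO, with no overlap between either knockout and Ctrl. Ebf2 rose by a log2 fold change of 1.73 ± 0.31 in F-cKO (edgeR adjusted P = 0.0064) and 2.15 ± 0.33 in M-cKO (adjusted P = 8.3e-04).

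Its relative Ebf3 had 1.01, 0.874 and 0.515 FPKM in Ctrl, 1.28, 1.48 and 1.29 in F-cKO, and 1.31, 1.36 and 1.04 in M-cKO. Ctrl replicate 3 was the lowest library, and the lowest M-cKO library lay just above the highest Ctrl library. The log2 fold change was 0.74 ± 0.21 in F-cKO (edgeR adjusted P = 0.035) and 0.61 ± 0.21 in M-cKO (adjusted P = 0.049). Without Ctrl replicate 3 these became 0.51 (adjusted P = 0.059) and 0.39 (adjusted P = 0.11). The F-cKO call was also lost without Ctrl replicate 2 (0.80, adjusted P = 0.060) or F-cKO replicate 2 (0.67, adjusted P = 0.11). The M-cKO call was lost without Ctrl replicate 2 (0.68, adjusted P = 0.052) or M-cKO replicate 1 (0.57, adjusted P = 0.10) or 2 (0.54, adjusted P = 0.15).

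Trp73 had 4.33, 5.04 and 3.91 FPKM in Ctrl, 5.41, 4.79 and 5.25 in F-cKO, and 5.80, 5.81 and 6.04 in M-cKO. The M-cKO libraries were close together and all above Ctrl, whereas F-cKO overlapped with Ctrl. Trp73 was higher in M-cKO by a log2 fold change of 0.40 ± 0.10 (edgeR adjusted P = 0.010), and its difference of 0.21 ± 0.11 in F-cKO was not called (adjusted P = 0.19).

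Of the LIM homeobox pair, Lhx1 had 1.08, 0.718 and 0.525 FPKM in Ctrl, 1.09, 1.19 and 1.68 in F-cKO, and 1.47, 1.61 and 1.22 in M-cKO. Its highest Ctrl library nearly met its lowest F-cKO library, and in CPM these overlapped (4.47 and 4.42). The log2 fold change was 0.86 ± 0.24 in M-cKO (edgeR adjusted P = 0.020) and 0.75 ± 0.28 in F-cKO (adjusted P = 0.083). Without Ctrl replicate 3 (0.67, adjusted P = 0.060) or M-cKO replicate 2 (0.78, adjusted P = 0.075) the M-cKO call was lost. Without Ctrl replicate 1 the F-cKO change was called (1.08, adjusted P = 0.038). With DESeq2 the F-cKO change of Lhx1 was also called (adjusted P = 0.045).

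Lhx5 had 2.85, 3.02 and 2.40 FPKM in Ctrl, 3.98, 3.45 and 2.63 in F-cKO, and 2.67, 2.45 and 3.33 in M-cKO. All 3 groups overlapped. Its log2 fold change was 0.27 ± 0.18 in F-cKO (edgeR adjusted P = 0.30) and 0.02 ± 0.16 in M-cKO (adjusted P = 0.94), and no alternative called it in either knockout.

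Nhlh2 had 6.39, 7.14 and 5.23 FPKM in Ctrl, 7.46, 7.96 and 8.97 in F-cKO, and 6.93, 6.93 and 7.03 in M-cKO. F-cKO lay above all Ctrl libraries, and M-cKO fell inside the Ctrl range. In F-cKO the log2 fold change was 0.37 ± 0.12, just outside the threshold in edgeR (adjusted P = 0.051) and inside it in DESeq2 (adjusted P = 0.015). It was also called without Ctrl replicate 2 (0.47, edgeR adjusted P = 0.030) or F-cKO replicate 1 (0.43, adjusted P = 0.039). In M-cKO it was 0.14 ± 0.10 (edgeR adjusted P = 0.33).

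Calb2, the calcium-binding protein of the set, moved the other way. It had 13.2, 12.7 and 16.3 FPKM in Ctrl, 9.31, 9.76 and 9.67 in F-cKO, and 8.97, 7.73 and 9.68 in M-cKO. Every knockout library was below every Ctrl library. The log2 fold change was -0.56 ± 0.11 in F-cKO (edgeR adjusted P = 0.0089) and -0.68 ± 0.12 in M-cKO (adjusted P = 0.0018), or 0.677-fold and 0.622-fold of Ctrl, with both calls kept when any 1 library was left out.

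**Figure D2:**
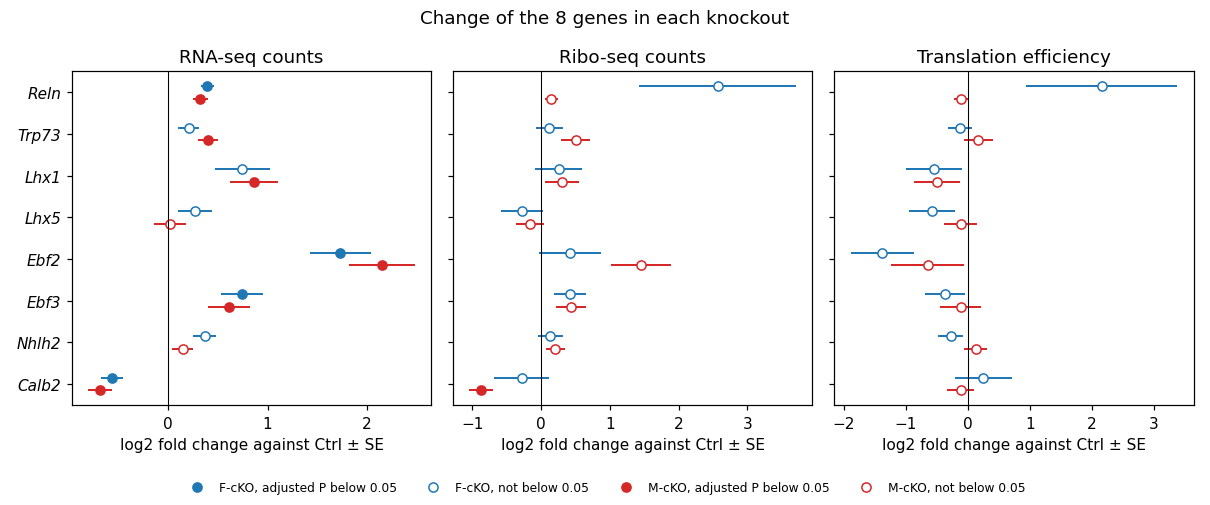
log2 fold change against Ctrl (points, with SE as bars) of the 8 genes in F-cKO (blue) and M-cKO (red), for RNA-seq counts, Ribo-seq counts and translation efficiency. Filled points passed an adjusted P of 0.05: 4 genes in F-cKO RNA, 6 in M-cKO RNA and Calb2 in M-cKO Ribo-seq. The widest bars are those of Reln in F-cKO Ribo-seq and translation efficiency.

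The RNA of the 8 genes was also compared between the knockouts directly. None was called between M-cKO and F-cKO with edgeR, where 27.4% of 16802 genes were. At an unadjusted P below 0.05, 2 of the 8 and 6720 of all genes passed with edgeR. The 2 were Nhlh2 and Trp73. DESeq2 called none of the 8 and 4422 of all genes. Nhlh2 was 0.23 ± 0.08 lower in M-cKO on the log2 scale (difference -0.23, edgeR adjusted P = 0.061, and -0.29 with adjusted P = 0.034 without F-cKO replicate 1). Trp73 was 0.18 ± 0.08 higher in M-cKO (adjusted P = 0.12), and Reln differed by -0.08 ± 0.07 (adjusted P = 0.42). Ebf2 differed by 0.41 ± 0.28 (adjusted P = 0.30) and Calb2 by -0.13 ± 0.11 (adjusted P = 0.40). With all 6 libraries fitted, no change in 1 knockout was thus shown to differ from that in the other.

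In these bulk samples, more or fewer Cajal-Retzius neurons and more or less RNA in each cannot be told apart. Other cell groups of the dissected tissue also moved with the genotypes, against a background over all genes of 11.5% called as higher and 9.57% as lower in F-cKO, and of 15.5% and 14.1% in M-cKO. Markers of the ganglionic eminence and of interneurons, which can hold Reln and Calb2, were higher in M-cKO for 13 of 14 genes and lower for 1, with a summed level of 702 to 948 CPM compared to 517 to 537 CPM in Ctrl. In F-cKO 6 of 14 were higher and 1 was lower, and the sum of 453 to 644 CPM overlapped with Ctrl. The Zic genes, listed for the septum but not shown here to be limited to it, were higher for 5 of 5 in M-cKO (213 to 294 CPM, Ctrl 109 to 133 CPM). In F-cKO 1 of 5 was higher (127 to 187 CPM). Meningeal markers, which mark the tissue next to the marginal zone, were lower for 6 of 9 in F-cKO, with 51.8 to 113 CPM compared to 146 to 249.9 CPM in Ctrl, and 0 of 9 were called in M-cKO (74.2 to 331 CPM). Subplate markers were lower for 2 of the 3 tested in both knockouts, at 45.0 to 58.2 CPM in F-cKO and 50.3 to 54.3 CPM in M-cKO compared to 74.1 to 98.1 CPM in Ctrl. Of 7 markers of radial glia and progenitors, 4 were higher in F-cKO (764 to 937 CPM) and 3 in M-cKO (745 to 809 CPM), compared to 423 to 641 CPM in Ctrl, with Ctrl replicate 3 lowest as for 7 of the 8 genes. Of 5 diencephalon markers tested, 2 were higher in F-cKO, and 3 were higher and 1 lower in M-cKO, with 4 of 9 listed markers below 1 CPM in every library of each group. Genes of cortical excitatory neurons, the main cells of the tissue, summed to 2707 to 2731 CPM in Ctrl, 2954 to 3064 CPM in F-cKO and 3252 to 3357 CPM in M-cKO, with no overlap, and 3 of 8 were higher in F-cKO, and 5 higher and 2 lower in M-cKO. Choroid plexus markers ranged from 89.1 to 985 CPM over the Ctrl libraries alone, and from 339 to 486 CPM in F-cKO and 545 to 735 CPM in M-cKO. Of these markers, 0 of the 4 tested were called in F-cKO, and 1 of 6 was higher in M-cKO. The part of these cell groups in the values of the 8 genes was not tested.

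Other genes listed for Cajal-Retzius neurons did not share 1 direction, and bulk RNA does not show which cells it came from. Nhlh1, the close relative of Nhlh2, was listed at 8.84, 6.97 and 3.69 FPKM in Ctrl, 11.9, 13.1 and 16.1 in F-cKO and 18.7, 18.1 and 18.9 in M-cKO. It rose by 1.06 ± 0.25 in F-cKO (edgeR adjusted P = 0.017) and 1.5 ± 0.21 in M-cKO (adjusted P = 5.0e-04). Ndnf, which encodes a secreted factor of marginal zone cells, was listed at 3.64, 2.91 and 3.97 FPKM in Ctrl, 2.10, 2.40 and 1.83 in F-cKO and 2.77, 2.22 and 2.5 in M-cKO. It was lower by -0.74 ± 0.13 (adjusted P = 0.0064) and -0.50 ± 0.12 (adjusted P = 0.0094). Cxcr4, the chemokine receptor that holds these neurons below the meninges, was lower in F-cKO (-0.28 ± 0.08, adjusted P = 0.031), and Cacna2d2, a calcium channel subunit, was higher in M-cKO (0.41 ± 0.09, adjusted P = 0.0065). Lhx1os, beside Lhx1, was called in neither.

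Of 20 genes that act with reelin, 1 was higher and 2 were lower in F-cKO RNA, and 7 were higher and 2 lower in M-cKO RNA. Of all genes, 21.1% were called in F-cKO and 29.6% in M-cKO. The log2 fold changes of these 20 genes had a median of 0.10 in F-cKO RNA and of -0.03 in M-cKO RNA, beside -0.01 over all genes in both. The receptor gene Lrp8 had 33.1, 33.9 and 32.4 FPKM in Ctrl, 34.7, 35.3 and 38.6 in F-cKO and 27.8, 29.8 and 26.6 in M-cKO. The adaptor gene Dab1 had 37.3, 35.6 and 38.1 FPKM in Ctrl, 39.4, 36.7 and 34.1 in F-cKO and 27.8, 27.4 and 26.5 in M-cKO. The RNA of both was lower in M-cKO, Dab1 by -0.45 ± 0.06 (edgeR adjusted P = 2.4e-04) and Lrp8 by -0.25 ± 0.06 (adjusted P = 0.011), and neither was called in F-cKO. The other receptor gene, Vldlr, was called in neither. Crkl, an adaptor downstream of Dab1, was higher in F-cKO (0.43 ± 0.08, adjusted P = 0.0069) and M-cKO (0.69 ± 0.08, adjusted P = 1.1e-04). Its relative Crk (0.32 ± 0.06, adjusted P = 0.0036) and Socs7 (0.24 ± 0.06, adjusted P = 0.0089) and Rnf7 (0.29 ± 0.07, adjusted P = 0.0096), which serve the degradation of Dab1, were higher in M-cKO. In F-cKO, Itga3, an integrin chain (-0.48 ± 0.12, adjusted P = 0.025), and Plat, a protease that can cleave reelin (-0.34 ± 0.09, adjusted P = 0.025), were lower. On the ribosome, Lrp8 went the other way in M-cKO, at 6.97 to 7.81 RPKM compared to 5.65 to 6.19 RPKM in Ctrl. Dab1 was below Ctrl there too, at 15.4 to 19.0 RPKM compared to 27.5 to 29.6 RPKM. In M-cKO Ribo-seq, 2 of the 20 genes were higher and 2 lower, where 14.6% of all genes were called. For the ratio of Ribo-seq to RNA-seq, 1 was higher and 1 lower, where 3.07% were called.

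Genes of the cortical hem, a source of Cajal-Retzius neurons, were tested for 12 of 14 listed. In F-cKO 4 were higher and 1 lower, where 21.1% of all genes were called, and in M-cKO 2 were higher and 1 lower, where 29.6% were. Wnt8b, which encodes a Wnt ligand, was higher in F-cKO (1.1 ± 0.28, edgeR adjusted P = 0.023) and in M-cKO (1.01 ± 0.23, adjusted P = 0.0071). Rspo1, which encodes an enhancer of Wnt signalling, was also higher in F-cKO (1.19 ± 0.33, adjusted P = 0.031) and in M-cKO (1.16 ± 0.33, adjusted P = 0.020). Wnt3a (1.1 ± 0.32, adjusted P = 0.036) and Rspo3 (0.42 ± 0.12, adjusted P = 0.033) were higher and the ligand gene Bmp4 (-1.38 ± 0.41, adjusted P = 0.041) was lower in F-cKO, and Rspo2 (-0.69 ± 0.20, adjusted P = 0.022) was lower in M-cKO. Bmp4 is also made by the meninges. The summed hem level was 87.4 to 122 CPM in Ctrl, 109 to 134 CPM in F-cKO and 96.0 to 141 CPM in M-cKO, and overlapped between the groups. Ctrl replicate 3 was the lowest Ctrl library for Wnt8b, Rspo1, Wnt3a and Rspo3. In Ctrl replicates 1 to 3, Wnt8b had 1.19, 1.22 and 0.696 FPKM and Rspo1 had 1.82, 1.80 and 0.744 FPKM. Fits without that library are not given for these genes.

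Of 5 listed fate regulators, 4 were tested, and 3 were higher in each knockout with 0 lower. Of all genes, 11.5% were higher in F-cKO and 15.5% in M-cKO. Gli3 was higher in F-cKO (1.06 ± 0.16, edgeR adjusted P = 0.0043) and in M-cKO (1.38 ± 0.14, adjusted P = 8.3e-05). Dmrta2 was higher as well in F-cKO (0.71 ± 0.18, adjusted P = 0.021) and in M-cKO (1.12 ± 0.17, adjusted P = 6.3e-04). Emx2 was higher in F-cKO (0.44 ± 0.14, adjusted P = 0.047) and Lhx2 in M-cKO (0.29 ± 0.09, adjusted P = 0.024). For each of these genes Ctrl replicate 3 was the lowest Ctrl library. In Ctrl replicates 1 to 3, Gli3 had 4.49, 3.65 and 2.59 FPKM and Dmrta2 had 13.1, 14.5 and 7.99 FPKM. Fits without that library are not given for them.

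**Figure D3:**
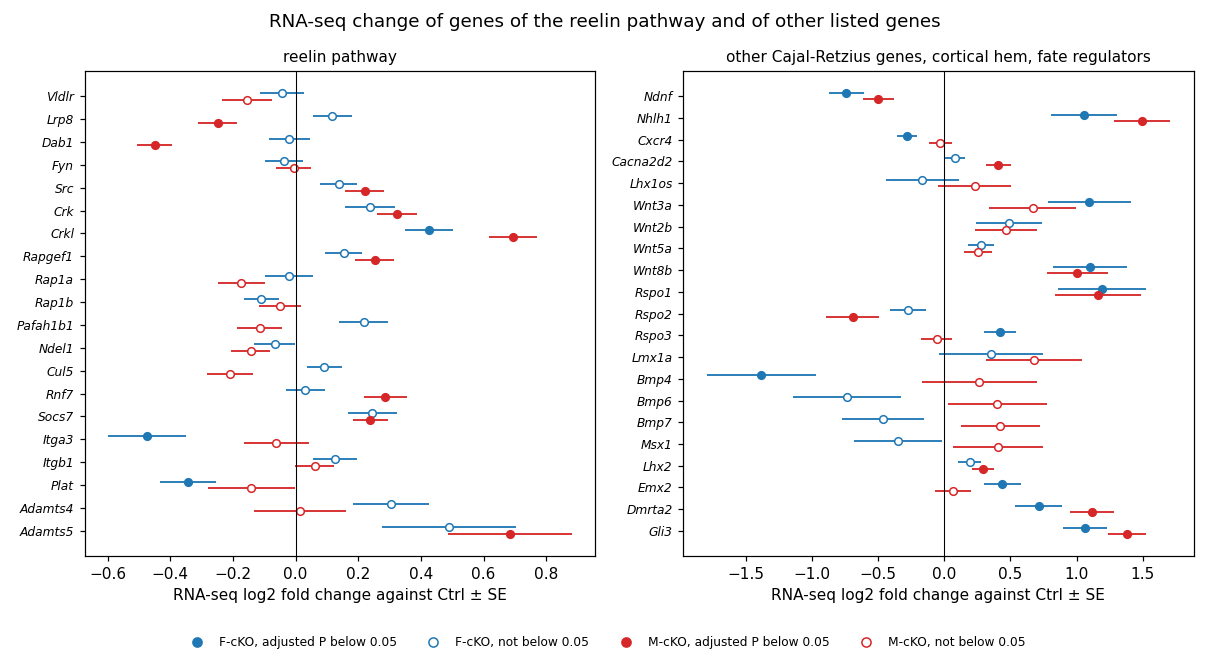
RNA-seq log2 fold change against Ctrl (points, with SE as bars) of 20 reelin pathway genes (left) and of the tested genes among other Cajal-Retzius genes, cortical hem genes and fate regulators (right). Filled points passed an adjusted P of 0.05, and Gli3, Dmrta2, Nhlh1, Wnt8b and Rspo1 lie right of 0 in both knockouts.

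The 5 genes most like Reln over the 9 RNA-seq libraries, by Pearson correlation of log2 CPM among 15133 genes, were Zfp507 (r = 0.995), Phf8 (r = 0.990), Rnf130 (r = 0.985), Bcl2l13 (r = 0.984) and Hcfc1 (r = 0.984). None is a Cajal-Retzius gene of the lists used here. Of the other 7 genes of the set, Ebf3 came nearest at rank 652 (r = 0.853), followed by Ebf2 (r = 0.830) and Lhx1 (r = 0.806). Calb2 stood near the other end at rank 14716 (r = -0.845). These are descriptions over 9 libraries that share 3 genotypes and their scaling.

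On the ribosome, edgeR called 1 of the 8 genes, Calb2. It was lower in M-cKO, where 14.6% of 14314 genes were called. DESeq2 called Calb2 and Ebf2 there, with 21.7% of all genes. No gene of the set was called in F-cKO Ribo-seq, where 0% of 14335 genes were called. There 0 of the 8 and 318 of all genes had an unadjusted P below 0.05, and DESeq2 called 6 genes and none of the 8. Library RPKM did not overlap with Ctrl for 1 gene of the set in F-cKO, Ebf3 (7.16% of all genes), and for 4 in M-cKO (38% of all genes). Those 4 were Reln, Ebf2 and Nhlh2, all above Ctrl, and Calb2, below it. In CPM this was Ebf3 again in F-cKO (7.86% of all genes), and 5 in M-cKO (39% of all genes), the same 4 and Ebf3, which lay above Ctrl. Markers of other cell groups also moved in M-cKO Ribo-seq. Of 13 for the ganglionic eminence and interneurons, 7 were higher and 1 lower (357 to 622 CPM, Ctrl 205 to 311 CPM). Of 5 Zic genes 3 were higher, of 3 subplate markers 1 was lower, and of 9 meningeal markers 0 were called. The part of these groups in the values of the 8 genes was not tested.

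Calb2 had 54.9, 44.4 and 43.0 RPKM in Ctrl, 32.9, 18.2 and 64.0 in F-cKO, and 24.3, 20.4 and 32.5 in M-cKO. All M-cKO libraries lay below Ctrl, whereas F-cKO held both the lowest and the highest of the 9 values. The log2 fold change was -0.87 ± 0.17 in M-cKO (edgeR adjusted P = 0.021) and -0.29 ± 0.40 in F-cKO (adjusted P = 0.80). The M-cKO call was lost when all 9 libraries were fitted together (-0.85, adjusted P = 0.28), without Ctrl replicate 1 (-0.75, adjusted P = 0.073), 2 (-0.92, adjusted P = 0.079) or 3 (-0.91, adjusted P = 0.058), and without M-cKO replicate 1 (-0.80, adjusted P = 0.066).

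Ebf2 had 0.252, 0.155 and 0.155 RPKM in Ctrl, 0.355, 0.244 and 0.142 in F-cKO, and 0.394, 0.820 and 0.321 in M-cKO. M-cKO lay above Ctrl, with replicate 2 far above the others, and its log2 fold change of 1.45 ± 0.44 did not pass with edgeR (adjusted P = 0.064) and passed with DESeq2 (adjusted P = 0.017). It passed with edgeR without M-cKO replicate 3 (1.72, adjusted P = 0.038). Trp73 had 2.68, 2.12 and 2.39 RPKM in Ctrl, 2.85, 2.15 and 2.58 in F-cKO and 2.49, 3.99 and 3.59 in M-cKO, and its M-cKO change of 0.50 ± 0.21 was not called (edgeR adjusted P = 0.14). Ebf3 had 0.787, 0.809 and 0.614 RPKM in Ctrl, 1.11, 0.882 and 0.883 in F-cKO and 0.980, 1.17 and 0.804 in M-cKO. Its changes of 0.42 ± 0.24 in F-cKO (edgeR adjusted P = 0.73) and 0.43 ± 0.22 in M-cKO (adjusted P = 0.21) were not called. Lhx1, Lhx5 and Nhlh2 changed by between -0.28 and 0.30 on the log2 scale in either knockout, with edgeR adjusted P between 0.34 and 0.80.

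**Figure D4:**
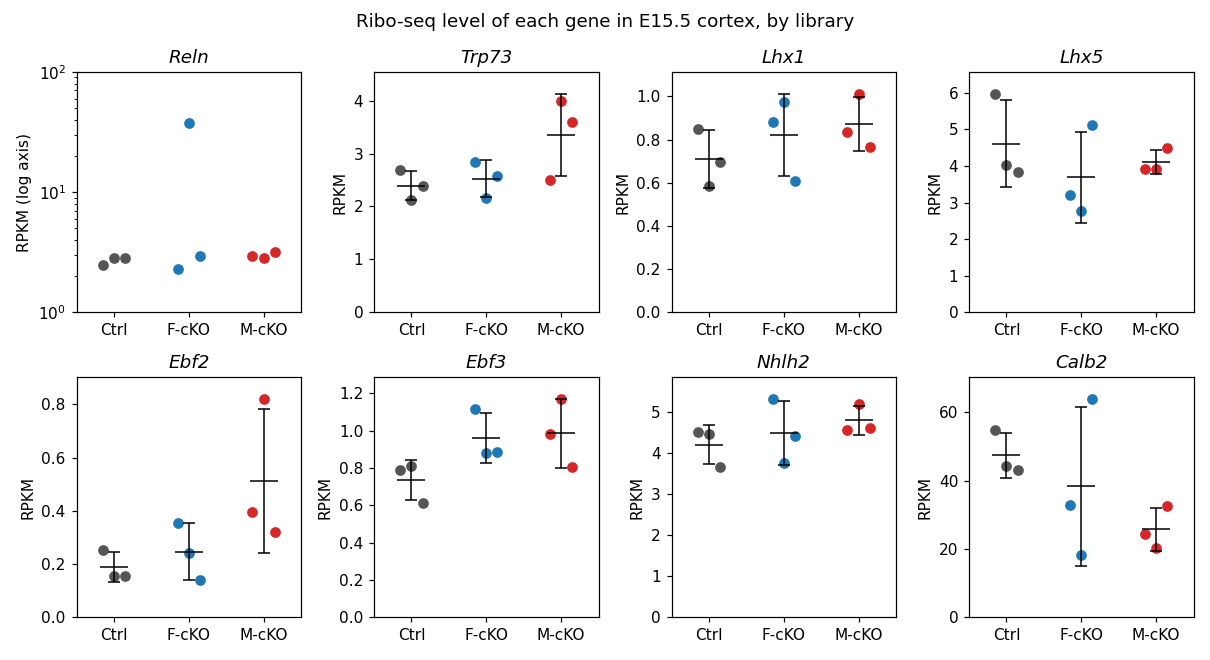
Ribo-seq level (RPKM) of each of the 8 genes in the 3 Ctrl, 3 F-cKO and 3 M-cKO libraries, with 1 point per library, and except for Reln the mean as a bar and the SD as whiskers on axes from 0. Reln is on a log axis, where 1 F-cKO library lies at 37.8 RPKM and the other 8 lie between 2.29 and 3.14 RPKM.

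Reln had 2.47, 2.83 and 2.81 RPKM in Ctrl, and 2.93, 2.83 and 3.14 RPKM in M-cKO, which lay just above Ctrl. In F-cKO it had 2.29, 37.8 and 2.95 RPKM, so that replicate 2 stood apart from the other 8 libraries. Over the genes without blank counts, this library gave 9048 of its 10973699 fragments to Reln, and it had the lowest such total. Its log2 fold change of 2.57 ± 1.14 in F-cKO was not called (edgeR adjusted P = 0.73), and it became -0.07 ± 0.16 without replicate 2. In M-cKO it was 0.15 ± 0.09 (adjusted P = 0.31).

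The same library stood apart in other genes as well. The summed level of 7 chaperones of the endoplasmic reticulum, a list chosen after values of these libraries had been seen, was 4310 CPM there and 448 to 695 CPM in the other 8 Ribo-seq libraries. The sum of 4 endothelial genes was 191 CPM and 7.0 to 15.7 CPM, and that of 4 other Cajal-Retzius genes 173 CPM and 58.8 to 75.6 CPM. By contrast, 8 genes of cortical excitatory neurons summed to 1851 CPM, below the 2407 to 2928 CPM of the others. Of the other genes of the set, Lhx1 (3.70 CPM), Ebf2 (1.57 CPM) and Ebf3 (7.58 CPM) lay above their Ctrl range in this library, Trp73 (11.1 CPM) and Nhlh2 (19.0 CPM) inside it, and Lhx5 (6.93 CPM) and Calb2 (29.6 CPM) below it. The part of this library's makeup in its Reln value was not tested. The RNA-seq library with the same number had 12.9 FPKM of Reln, and the labels do not say that the same tissue gave both.

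**Figure D5:**
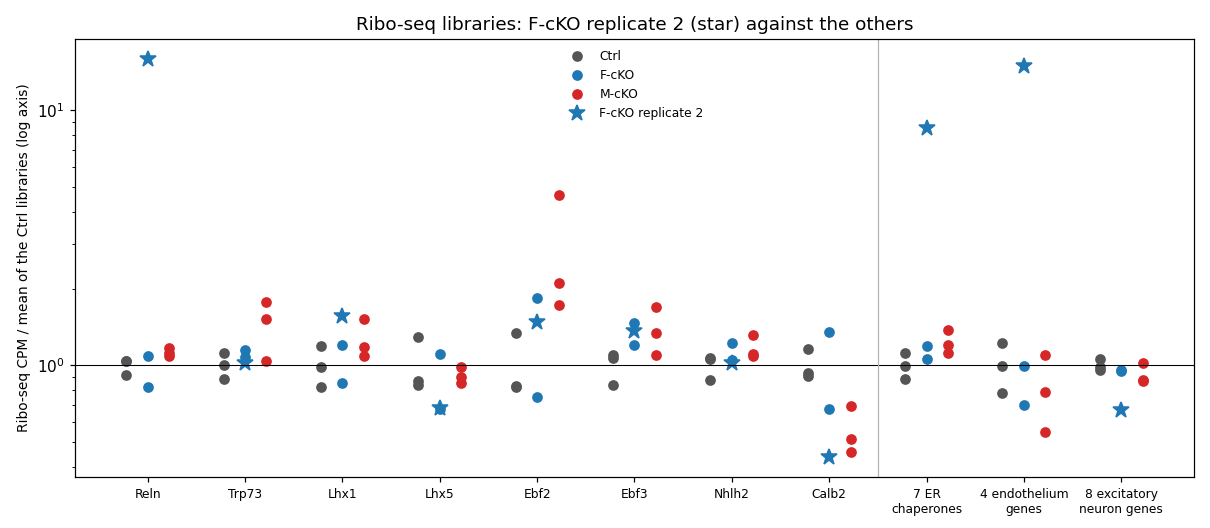
Ribo-seq CPM of the 8 genes and of 3 summed gene lists (7 chaperones of the endoplasmic reticulum, ER, 4 endothelium genes and 8 excitatory neuron genes) in each library, divided by the mean of the 3 Ctrl libraries (log axis, 1 point per library, line at 1). F-cKO replicate 2 (star) lies far above the others for Reln, the chaperones and the endothelial genes, and below them for Calb2 and the excitatory neuron genes.

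Translation efficiency (TE), the Ribo-seq level relative to the RNA-seq level, varied widely among the 8 genes. As the ratio of mean RPKM to mean FPKM, from tables that were scaled apart, it was 3.37 for Calb2 in Ctrl, above 95.8% of 13208 genes, and 2.20 for Ebf2, 1.67 for Lhx5, 0.921 for Ebf3, 0.916 for Lhx1, 0.674 for Nhlh2, 0.541 for Trp73 and 0.265 for Reln. The median gene had 0.886, and Reln lay above 15% of genes. In M-cKO the ratio of Calb2 was 2.93 and that of Reln 0.231. In F-cKO it was 4.0 for Calb2 and 1.06 for Reln, and without replicate 2 of the Ribo-seq libraries 5.06 and 0.194.

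No TE of the 8 genes was called in either knockout (edgeR, interaction of assay and genotype over 12 libraries), where 3.07% of 13208 genes were called in M-cKO and 0% of 13225 in F-cKO. At an unadjusted P below 0.05 these were 0 of the 8 in M-cKO and 1 in F-cKO, out of 2841 and 1228 genes. That 1 was Ebf2, whose TE differed by -1.38 ± 0.51 on the log2 scale (unadjusted P = 0.022, adjusted P = 0.50). DESeq2 called no TE of the 8 genes in either knockout, while it called 1044 genes in M-cKO and 47 in F-cKO. For Calb2 in M-cKO, the gene lower in both assays, the TE difference was -0.12 ± 0.22 (edgeR adjusted P = 0.80). For Reln in F-cKO it was 2.16 ± 1.22 (adjusted P = 0.54), and -0.45 ± 0.15 without Ribo-seq replicate 2 (adjusted P = 0.24).

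Between M-cKO and F-cKO no gene of the set was called in Ribo-seq, where 0% of 14262 genes were called with edgeR, or in TE, where 0% of 13162 were. None of the 8 had an unadjusted P below 0.05 in either, out of 1154 and 541 genes. DESeq2 called 200 genes in Ribo-seq and 25 in TE, none of them in the set. On the RPKM table, limma called no gene of the set in F-cKO (0% of 20892 genes) or M-cKO (3.1% of 22217 genes). At an unadjusted P below 0.05, 0 and 2 of the 8 passed there, out of 516 and 5214 genes. The gene closest to the threshold was Calb2 in M-cKO, with a difference of -0.90 ± 0.19 on the log2(RPKM + 0.1) scale (adjusted P = 0.059, and -1.08 with adjusted P = 0.029 without M-cKO replicate 3).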

How the data were processed

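RNA-seq and Ribo-seq of E15.5 cortices gave 18 libraries, 3 per genotype and assay, grouped by their labels. For RNA-seq, the authors aligned paired-end reads with HISAT2 2.0.5 and deposited read counts and FPKM per gene. For Ribo-seq, the authors aligned fragments with TopHat2, counted them with HTSeq and deposited counts and RPKM. The submitters' processing notes name mm10 and DESeq2 1.14.1. The RNA-seq counter and the annotation are not given in the sources used here. Symbols matched 54723 of 55153 RNA-seq genes. Of the 54838 genes with deposited Ribo-seq counts, 40490 hold blanks and were left out, which left 14348 genes, all 8 members among them.

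Both kinds of count went into edgeR 4.0.16 under R 4.3.3 (filterByExpr, minimum count 10 and total 15, TMM scaling, quasi-likelihood test) over the 6 libraries of a comparison. Benjamini-Hochberg adjustment covered every gene tested. The SE is the log2 fold change divided by the square root of F. For TE, the assay-by-genotype term was tested over 12 libraries, in genes that passed in both assays. RPKM was tested with limma 3.58.1 on log2(RPKM + 0.1) at a mean RPKM of at least 0.1. CPM used TMM scaling over 9 libraries. Alternatives were DESeq2 1.42.0, RLE scaling, no filter, all groups fitted at once, a replicate block, filled blanks, a pseudocount of 1 and each library left out. The fits were tested on simulated data. The members and lists were chosen with earlier results of these data known. Named beside the members are, of the reelin, Cajal-Retzius, hem and regulator lists, up to 4 called genes per direction and comparison with the smallest adjusted P, Mettl3 and Fto, the 5 genes most like Reln, and a few others (Vldlr, Lhx1os) chosen after their values were seen. 1 gene of the regulator list is not reported here. Of the remaining marker lists only counts and sums are given.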

Additional observations from a re-analysis of the deposited data

Results flagged for a closer look

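No gene of the Cajal-Retzius set was shown to change differently in F-cKO and M-cKO RNA. Of 31 other genes named above, 15 did when M-cKO was tested against F-cKO directly with edgeR (adjusted P below 0.05), as did 27.4% of all 16802 genes. Most of the 31 were named for a small adjusted P against Ctrl or, for Fto and Mettl3, as the targeted genes, so the count is not to be set against that of the set. In the direct fit the log2 fold change of M-cKO against F-cKO was -0.44 for Dab1, -0.38 for Lrp8, 0.40 for Itga3, 0.26 for Crkl and 0.24 for Rnf7 in the reelin pathway. It was 0.43 for Nhlh1, 0.32 for Cacna2d2 and 0.24 for Cxcr4 among the other Cajal-Retzius genes. In the hem it was 1.64 for Bmp4 and -0.49 for Rspo3, and among the regulators it was 0.39 for Dmrta2, 0.31 for Gli3 and -0.39 for Emx2. For the targeted genes it was 1.56 for Fto and 0.48 for Mettl3.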

How the results depend on the processing

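In RNA-seq, 4 genes of the set were called in F-cKO with edgeR (21.1% of all genes), 6 with DESeq2 (12.1%), 5 with RLE scaling (21.2%), 6 with no filter on low counts (14.5%) and 6 with all groups fitted at once (23%), and 3 to 5 with 1 library left out (8.92% to 20%). In M-cKO RNA-seq, 6 were called in each of these fits (29.6%, 15.4%, 29.5%, 18.1% and 28% of all genes), and 4 to 6 with 1 library left out (20.5% to 26.9%). With DESeq2 and with no filter the shares are over more genes, 30597 for F-cKO and 30551 for M-cKO. In M-cKO Ribo-seq the 1 called gene became 2 with DESeq2 and 0 with all groups fitted at once, and 0 to 2 with 1 library left out. The calls over all genes moved with it, from 2093 to 3117, to 35, and to between 177 and 2547. With 1 library left out, 0 to 1 were called between M-cKO and F-cKO in RNA-seq (16.1% to 26.4% of all genes) and 0 to 1 in M-cKO RPKM (0.124% to 4.42%). The replicate block called 4 genes in F-cKO RNA-seq, 6 in M-cKO RNA-seq and 1 in M-cKO Ribo-seq, with 2130, 4451 and 1319 calls over all genes. Deviations of same-numbered libraries from their group means correlated at -0.144 to 0.163 in RNA-seq and -0.278 to 0.157 in Ribo-seq. Those of differently numbered libraries correlated at -0.234 to 0.196 and -0.318 to 0.415. With 3 libraries per group, these values cannot show whether the replicate numbers pair the samples. No other alternative moved a count of called genes of the set by over 1.5 times. Ebf2, with 9 to 17 reads per Ctrl library, is the member most limited by depth.

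With 1 library left out, 30 fits of single genes changed direction, all of them of values that were not called, and the cause was not tested. In F-cKO the log2 difference ranged from -0.066 to 3.15 for Reln and -0.81 to 0.016 for Calb2 in Ribo-seq, from -0.45 to 2.56 for Reln and -0.33 to 0.58 for Calb2 in TE, and from -0.052 to 1.94 for Reln, -0.015 to 0.18 for Trp73 and -0.039 to 0.20 for Nhlh2 in RPKM. In M-cKO it ranged for Lhx5 from -0.11 to 0.12 in RNA-seq, -0.25 to 0.076 in Ribo-seq, -0.23 to 0.13 in TE and -0.25 to 0.059 in RPKM, and in TE from -0.015 to 0.36 for Trp73, -0.33 to 0.0051 for Calb2 and -0.32 to 0.11 for Ebf3. Between M-cKO and F-cKO it ranged for Lhx1 from -0.010 to 0.34 in RNA-seq, -0.18 to 0.29 in Ribo-seq and -0.20 to 0.23 in TE. There it ranged for Reln from -2.98 to 0.23 in Ribo-seq and -2.78 to 0.36 in TE, for Ebf3 from -0.14 to 0.17 in Ribo-seq and for Calb2 from -0.69 to 0.17 in TE.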
